A study of Mus musculus with 6 samples.

Results

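LIM homeobox transcription factors and the LIM cofactors that bind them were examined in bulk RNA-seq of the developing mouse palate. The set held 9 genes chosen by symbol out of 56691 genes in the count files: 6 LIM homeobox genes (Lhx2, Lhx6, Lhx8, Lhx9, Isl1 and Lmx1b), the LIM-only gene Lmo4, and both LIM domain binding genes, Ldb1 and Ldb2. The RNA came from palatal shelves of untreated C57BL/6J embryos at embryonic day (E) 14.0, and there were 3 libraries each of the anterior and of the posterior region. The shelves were dissected by hand into regions, so each library mixes mesenchyme, epithelium and any other cells in the piece. The labels do not say whether 1 library is 1 embryo or a pool, and p-values measure only the spread between these samples.

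LIM homeobox factors carry a pair of LIM domains, which bind other proteins, and a homeodomain, which binds DNA. LDB proteins bind LIM domains and dimerize, and so join LIM homeobox factors into larger complexes, while LIM-only proteins have LIM domains without a homeodomain and can compete for LDB. In the facial primordia, Lhx6 and Lhx8 are known as factors of the neural crest-derived mesenchyme, and loss of Lhx8 in mice causes cleft palate.

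Within the set, the regions differed in opposite directions. Lhx6, Lhx8 and Isl1 were higher in the anterior palate, by 1.64-fold to 4.04-fold, and Lmo4 was 2.50-fold higher in the posterior palate. Ldb1 and Ldb2, the shared binding partners, did not pass the test in either direction. Of the 9 members, 6 had enough reads to be tested, meaning at least 10 counts in at least 3 libraries, and 4 of these passed an adjusted p of 0.05 (edgeR's quasi-likelihood test, Benjamini-Hochberg adjustment). The share of all 15673 genes tested that passed was 7.46%, with 2.59% higher in anterior palate and 4.87% in posterior palate. The median log2 fold change, posterior over anterior, was -0.46 over the 6 members tested and -0.0040 over all genes tested. In 5 of the 6 members tested the 2 regions had separate ranges in CPM, the count scaled by library size, as did 28.0% of all genes tested, and so did Lhx9 among the members not tested.

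The homeobox, the stretch that encodes the homeodomain, is shown for the 3 LIM homeobox genes that differed between the regions, because these genes can then be compared in the part that makes them DNA-binding factors. Each run is 180 bases of coding sequence from GENCODE M21 (GRCm38), given 5′ to 3′ on the gene's own strand, with capitals where a base differs from Lhx8 at the same position.
Lhx8: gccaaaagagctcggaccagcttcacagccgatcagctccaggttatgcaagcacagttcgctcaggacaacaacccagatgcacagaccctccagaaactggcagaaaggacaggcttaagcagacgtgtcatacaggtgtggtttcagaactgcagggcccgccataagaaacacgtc
Lhx6: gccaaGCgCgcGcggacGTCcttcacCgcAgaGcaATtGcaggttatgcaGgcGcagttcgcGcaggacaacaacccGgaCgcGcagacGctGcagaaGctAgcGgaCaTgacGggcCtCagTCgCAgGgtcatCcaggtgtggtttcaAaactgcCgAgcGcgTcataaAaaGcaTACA
Isl1: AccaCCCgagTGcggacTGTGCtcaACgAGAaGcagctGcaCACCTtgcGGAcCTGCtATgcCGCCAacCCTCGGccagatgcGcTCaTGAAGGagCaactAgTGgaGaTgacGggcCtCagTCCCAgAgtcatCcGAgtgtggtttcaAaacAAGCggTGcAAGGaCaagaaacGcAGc
The Lhx8 homeobox lies on the minus strand in exons 6, 7 and 8 at chr3:154321627-154321668, chr3:154316743-154316838 and chr3:154311682-154311723. The Lhx6 homeobox is also split over exons 6, 7 and 8 on the minus strand, at chr2:36091606-36091647, chr2:36091320-36091415 and chr2:36091095-36091136. That of Isl1 lies whole in exon 4, on the minus strand at chr13:116303091-116303270. Lhx6 differed from Lhx8 at 46 of the 180 bases (74.4% identity) and Isl1 differed from Lhx8 at 85 (52.8% identity). The closest homeobox to Isl1 within the family was that of Isl2, with 83.3% identity. The longest exact stretch in common between transcripts of Lhx6 and Lhx8, which could share reads, was 14 bases. It was 23 bases for Isl1 and Isl2, 23 bases for Ldb1 and Ldb2, and 41 bases for Lhx6 and Lhx9, the longest among the pairs compared.

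The libraries held 11378736 to 15172733 counts on genes, and a gene at 0 could have up to 0.206 to 0.260 CPM at this depth, by the limit of 3 counts that a 0 allows. The known regional markers followed the labels: the summed level of Shox2, Alx1 and Msx1 was 658 to 778 CPM in the anterior and 8.08 to 23.0 CPM in the posterior libraries, and that of Meox2 and Tbx22 was 8.35 to 10.04 and 180 to 274 CPM. Posterior replicates 2 and 3 stood apart from the other 4 libraries, with 6.12% and 5.94% of reads mapping to several places against 8.45% to 8.77%, and 0.973% and 1.14% of counts on mitochondrial genes against 2.70% to 2.97%. Both are posterior, so that this property and the region cannot be told apart within them. All 8 skeletal muscle markers tested were higher in the posterior palate, with a summed level of 563 to 997 CPM against 9.71 to 12.2 CPM. In bulk samples, fewer cells of a type and less RNA per cell cannot be told apart.

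Lhx8 (ENSMUSG00000096225.8) acts in palatal, dental and forebrain development and lies at chr3:154306294-154330659 on the minus strand (GRCm38, as are the positions of the other genes). It was at 86.4, 103 and 119 CPM in anterior replicates 1, 2 and 3. In posterior replicates 1, 2 and 3 it was at 63.8, 42.1 and 47.9 CPM. Every anterior library lay above every posterior library, and posterior replicate 1 was the closest to the anterior range. The means were 102.9 ± 16.4 and 51.3 ± 11.2 CPM (SD, n = 3 per region), a log2 fold change of -1.01 (SE 0.18, 95% interval -1.43 to -0.58), or 2.01-fold higher in the anterior palate, with an adjusted p of 0.0171 by edgeR's quasi-likelihood test. The call was lost when any of 4 libraries was left out: the adjusted p was 0.0763 without anterior replicate 2, 0.0711 without anterior replicate 3, 0.0697 without posterior replicate 2 and 0.0681 without posterior replicate 3, with a log2 fold change of -1.01 to -0.88 in those 4 fits. In the 4 libraries with more multimapped reads, the log2 fold change was -0.69 with an adjusted p of 0.0507, and with the split of libraries by multimapping as a term in the fit it was -0.69 with an adjusted p of 0.0485, where in both fits the difference rests on posterior replicate 1 against the anterior libraries.

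Lhx6 (ENSMUSG00000026890.20, chr2:36081953-36105408, minus strand) is the close relative of Lhx8 that is also expressed in facial mesenchyme and in interneuron precursors of the forebrain. It was at 78.6, 102 and 98.5 CPM in the anterior libraries. The posterior libraries held 59.9, 49.8 and 60.1 CPM. The regions again did not overlap, and anterior replicate 1 was the lowest anterior library for Lhx6 as it was for Lhx8. The means were 93.1 ± 12.7 and 56.6 ± 5.91 CPM (SD, n = 3 per region), a log2 fold change of -0.72 (SE 0.13, 95% interval -1.03 to -0.41), or 1.64-fold higher in the anterior palate, with an adjusted p of 0.0191 by edgeR's quasi-likelihood test. The adjusted p was 0.0995 without anterior replicate 2, 0.0832 without anterior replicate 3 and 0.0819 without posterior replicate 2, with log2 fold changes of -0.65, -0.68 and -0.63. With the replicate number as a block, the adjusted p of edgeR's quasi-likelihood test was 0.0520 at a log2 fold change of -0.71. When the split of libraries by multimapping was added as a term, it was 0.0599 at a log2 fold change of -0.64, and in the 4 libraries with more multimapped reads it was 0.0453 at -0.64, again with posterior replicate 1 alone against the anterior libraries.

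Isl1 (ENSMUSG00000042258.14, chr13:116298281-116309689, minus strand), a factor of cardiac and hindlimb progenitors and of motor neurons that is also known in oral epithelium, had the largest fold change among the members tested. It was at 11.6, 11.9 and 13.4 CPM in the anterior libraries. In the posterior libraries it was at 2.62, 3.83 and 2.67 CPM, from 35, 53 and 39 counts. The gap between the regions was wider than the spread within either, with means of 12.3 ± 0.962 and 3.04 ± 0.683 CPM (SD, n = 3 per region). The log2 fold change was -2.01 (SE 0.20, 95% interval -2.48 to -1.55), or 4.04-fold higher in the anterior palate, with an adjusted p of 0.00135 by edgeR's quasi-likelihood test. The call held in 17 of 17 alternative fits, with a log2 fold change between -2.23 and -1.92. With the split by multimapping as a term, or in the 4 libraries with more multimapped reads, the difference rests on posterior replicate 1 alone. Posterior replicate 2, the highest posterior library for Isl1, was also the library with the most RNA from neuronal genes, at a summed 294 CPM over the 5 neuronal markers tested against 17.3 to 43.3 CPM in the other 5 libraries. None of these 5 markers was called by edgeR, and 3 of them (Elavl3, Elavl4 and Prph) had an unadjusted p under 0.05. The part of neurons in the level of Isl1 in that library was not tested. Without posterior replicate 2, the log2 fold change of Isl1 was -2.21 with an adjusted p of 0.00352. Of the epithelial markers, 1 of 6 passed the test, Trp63, at 69.0 ± 3.66 CPM in the anterior and 44.0 ± 3.87 CPM in the posterior palate (SD, n = 3 per region), and the summed level of the list was 1435 to 1542 CPM against 977 to 1646 CPM. Krt5, a keratin of basal epithelium, was not called but had libraries that did not overlap, with a log2 fold change of -0.93, an unadjusted p of 0.00532 and an adjusted p of 0.0616 by edgeR's quasi-likelihood test. The part of epithelium in the level of Isl1 was not tested.

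The remaining LIM homeobox members were near or below the filter. Lhx9, known from gonad and limb development, had 17, 11 and 9 counts in the anterior libraries and 3, 1 and 3 in the posterior libraries. It missed the filter by 1 count in 1 library, and its libraries did not overlap between the regions. The summed counts of 37 and 7 gave a ratio, anterior over posterior and scaled by library size, of 5.74 with an exact 95% interval of 2.53 to 15.3, which covers counting error only. When no filter on low counts was used, Lhx9 had a log2 fold change of -2.45 and an adjusted p of 0.0157 in edgeR's quasi-likelihood test. Lhx9 shares the stretch of 41 bases with the far more abundant Lhx6, which was higher in the same region, and whether reads of Lhx6 were counted on Lhx9 was not tested. Lhx2, a factor of the eye, forebrain and hair follicle, had 16, 7 and 5 counts in the anterior and 2, 13 and 3 in the posterior libraries. Its regions overlapped, posterior replicate 2 was again the highest posterior library, and the ratio of 1.69 had an interval of 0.902 to 3.24. Lmx1b, which patterns the dorsal limb, had at most 4 counts in any library, and a difference between the regions was not detectable at this depth.

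**Figure D1:**
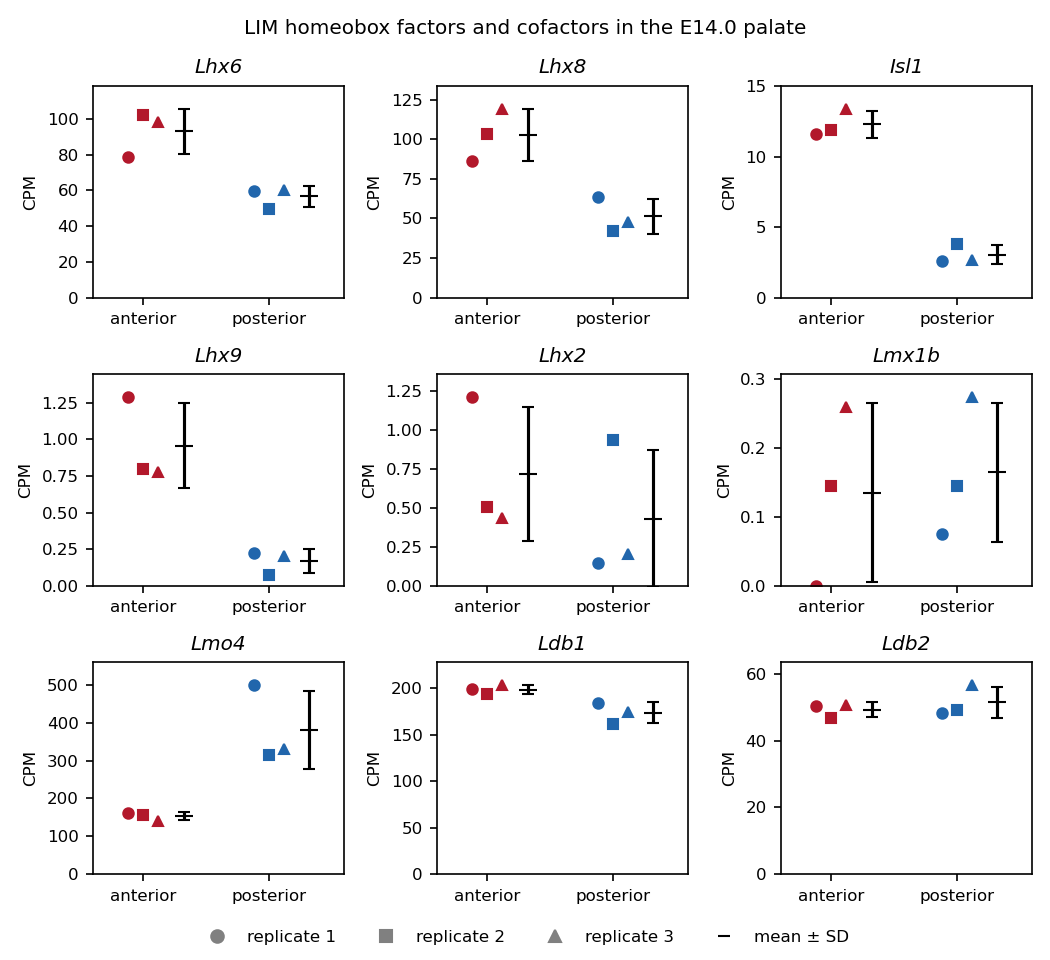
Level of each of the 9 genes in each library, in CPM on a linear axis that starts at 0, with its own scale for each gene. Points are single libraries, with the replicate given by the marker shape, and bars are the mean ± SD of 3 libraries per region. The anterior points lie above the posterior points for Lhx6, Lhx8, Isl1, Lhx9 and Ldb1, the order is the opposite for Lmo4, and the points of Ldb2 overlap.

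Lmo4 (ENSMUSG00000028266.18, chr3:144188530-144205220, minus strand), the LIM-only member, went the other way. It was at 161, 156 and 141 CPM in the anterior libraries. In posterior replicates 1, 2 and 3 it was at 499, 315 and 329 CPM. The lowest posterior library was well above the highest anterior library, and posterior replicate 1 stood above the other two. The means were 152.6 ± 10.7 and 381 ± 103 CPM (SD, n = 3 per region), a log2 fold change of 1.32 (SE 0.19, 95% interval 0.89 to 1.75), or 2.50-fold higher in the posterior palate, with an adjusted p of 0.00572 by edgeR's quasi-likelihood test. The call held in 17 of 17 alternative fits, with a log2 fold change from 1.08, without posterior replicate 1, to 1.71, with the term for the library groups. In the latter fit, and in the 4 libraries with more multimapped reads, the difference rests on posterior replicate 1, the highest library for Lmo4. The skeletal muscle markers, higher in the same region as Lmo4, summed to 703, 563 and 997 CPM in posterior replicates 1, 2 and 3. The part of muscle in the level of Lmo4 was not tested.

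Ldb1 (ENSMUSG00000025223.16, chr19:46031570-46045214, minus strand), the more widely studied of the LDB adaptors, was at 198.8, 193.5 and 203 CPM in the anterior libraries. The posterior libraries held 184, 162 and 175 CPM. Every anterior library lay above every posterior one, but the difference was small, with means of 198.6 ± 4.89 and 173.5 ± 11.3 CPM (SD, n = 3 per region). The log2 fold change of Ldb1 was -0.19 (SE 0.09, 95% interval -0.40 to 0.015) with an adjusted p of 0.224 by edgeR's quasi-likelihood test. Without posterior replicate 1, Ldb1 passed the test, at a log2 fold change of -0.23 and an adjusted p of 0.0145. That fit called 7119 of the 15349 genes it tested. Ldb1 overlaps Pprc1 on the opposite strand, and the counts used were those of 1 strand.

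Ldb2 (ENSMUSG00000039706.12, chr5:44472132-44799680, minus strand), the paralog of Ldb1, was at 50.5, 46.8 and 50.7 CPM in the anterior and 48.4, 49.3 and 56.7 CPM in the posterior libraries. The regions overlapped, with means of 49.3 ± 2.17 and 51.5 ± 4.54 CPM (SD, n = 3 per region). The log2 fold change was 0.062 (SE 0.10, 95% interval -0.17 to 0.30) with an adjusted p of 0.713 by edgeR's quasi-likelihood test. GENCODE M21 places genes such as Gm42981 and Gm3364 inside Ldb2 on the same strand, and how the counting divided reads between them and Ldb2 is not known here.

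The question for the set was how LIM homeobox genes compare with their LDB and LIM-only partners, which requires levels per transcript length. Counts divided by exonic length and scaled to the same total in each library (the scale of TPM) were used for this. In the anterior palate Lmo4 (145.6 ± 9.78), Ldb1 (145.3 ± 5.57) and Lhx8 (137.0 ± 22.2) were the most abundant members on this scale and did not differ beyond their SDs. Lhx6 (65.2 ± 8.39), Ldb2 (49.8 ± 2.91) and Isl1 (10.5 ± 0.898) followed, each separated from the next by more than their SDs together. In the posterior palate the order on the per-length scale was Lmo4 (384 ± 67.4), Ldb1 (135.6 ± 5.93), Lhx8 (72.2 ± 9.41), Ldb2 (55.9 ± 8.18), Lhx6 (42.4 ± 3.96) and Isl1 (2.79 ± 0.800). There Lhx8 and Ldb2 differed by less than the sum of their SDs. Lhx2, Lhx9 and Lmx1b lay below all of these, with means over the 6 libraries of 0.460, 0.201 and 0.109.

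Summed by class, the 6 LIM homeobox members had a per-length level of 182.7, 216 and 242 in the anterior and 125.3, 107.7 and 120.7 in the posterior libraries. The sum of Ldb1 and Ldb2 was 197.9, 185.7 and 201.8 in the anterior and 177.9, 190.6 and 205.8 in the posterior libraries. On this per-length scale the LIM homeobox sum was separated by region and the LDB sum was not. In CPM, without division by length, the LDB sum was separated too, at 240.4 to 254 in the anterior and 211 to 233 in the posterior libraries. The ratio of the LIM homeobox sum to the LDB sum was 0.92, 1.16 and 1.20 in the anterior and 0.70, 0.57 and 0.59 in the posterior libraries, a difference of -0.82 on the log2 scale. The ratio of Lmo4 to the LDB sum ran the other way, at 0.78, 0.79 and 0.67 against 2.59, 1.79 and 1.70. With both changes joined, LIM homeobox over Lmo4 was 1.18 to 1.79 in the anterior and 0.27 to 0.35 in the posterior libraries. These ratios are made from genes whose own differences are given above, and are a description with no test of their own. They are ratios of RNA, and protein was not measured in these libraries.

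**Figure D2:**
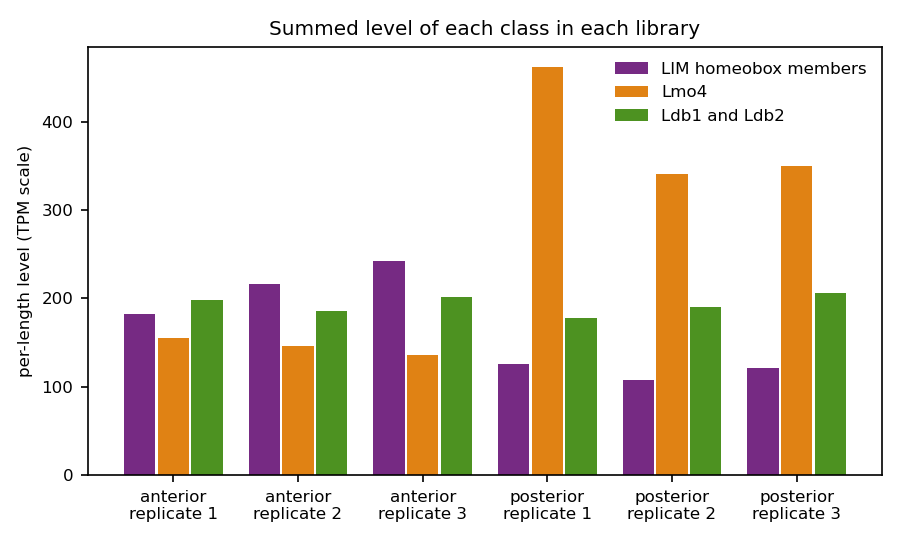
Summed per-length level of the LIM homeobox members, of Lmo4, and of Ldb1 and Ldb2 in each of the 6 libraries, as counts per exonic length on the TPM scale, on an axis from 0. Lmo4 is the lowest bar in each anterior library and the highest in each posterior library, while the bars of Ldb1 and Ldb2 stay between 177.9 and 205.8.

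Within the LIM homeobox class, Lhx8 made up 62.5% to 66.1% of the summed level in the anterior and 58.7% to 65.6% in the posterior libraries. Lhx6 made up 28.8% to 32.6% and 32.5% to 38.8%, and Isl1 4.61% to 5.45% and 1.72% to 3.43%. The share of Lhx8 overlapped between the regions and that of Isl1 did not. The ratio of Lhx8 to Lhx6 was 2.08, 1.92 and 2.30 in the anterior and 2.02, 1.61 and 1.51 in the posterior libraries, so the pair was not separated by region in its proportions. Ldb1 over Ldb2 was 2.85 to 2.99 in the anterior and 2.23 to 2.75 in the posterior libraries.

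Of the rest of the LIM homeobox family, 2 of 6 genes were tested and 1 passed. Isl2, the closest relative of Isl1 and a motor neuron factor, was at 2.96, 3.78 and 3.63 CPM in the anterior and 0.599, 1.44 and 0.411 CPM in the posterior libraries, with 6 to 20 counts in each of the latter. Its regions did not overlap, and posterior replicate 2 was the highest of the posterior libraries, as for Isl1. The log2 fold change of Isl2 was -2.07 (SE 0.43) with an adjusted p of 0.0294 by edgeR's quasi-likelihood test, and it was called in 11 of 16 alternative fits. It met the filter on low counts through the anterior libraries, where it is high, and with 10 counts required in every library it was not tested. The calls lost included those without anterior replicate 1, 2 or 3 and without posterior replicate 3, at an adjusted p of 0.0848, 0.118, 0.0983 and 0.0771. Over the alternative fits the log2 fold change of Isl2 ran from -2.76, without posterior replicate 2, to -1.74, without posterior replicate 3. Lmx1a, which acts in the midbrain and roof plate, had 5, 4 and 8 counts in the anterior and 13, 18 and 24 in the posterior libraries. It met the filter only through the posterior libraries, where it is high, and its log2 fold change of 1.54 (SE 0.41) did not pass, with an adjusted p of 0.0714. Of the other 4 genes, Lhx3 and Lhx4 had no counts in any library, and Lhx1 and Lhx5 had at most 2. In all, 5 of the 12 LIM homeobox genes were tested.

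Lmo1, Lmo2 and Lmo3, the other LIM-only genes, were all tested and none passed, nor did any have an unadjusted p under 0.05. Lmo2, an adaptor of blood and endothelial development, was at 11.4 ± 1.73 and 12.6 ± 1.41 CPM (SD, n = 3 per region), with a log2 fold change of 0.15. Lmo1 and Lmo3, both also known from the nervous system, had log2 fold changes of -0.38 and -0.27, with adjusted p-values of 0.408 and 0.688 by edgeR's quasi-likelihood test. The direction of Lmo3 turned without anterior replicate 3, to a log2 fold change of 0.24. A difference between Lmo4 and the other LIM-only genes was not itself tested.

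For the proteins that act on LDB, no difference in RNA between the regions was called. Ssbp2, Ssbp3 and Ssbp4, the single-stranded DNA-binding proteins that protect LDB from degradation, had log2 fold changes of -0.033, -0.17 and 0.041, and Rlim, the ubiquitin ligase that targets LDB for degradation, had one of 0.095. None of the 4 passed edgeR's quasi-likelihood test (adjusted p 0.422 to 0.852), and their libraries overlapped between the regions. At an unadjusted p under 0.05 the count was also 0, the smallest p of the 4 being 0.224. The direction of each of these genes turned in at least 1 alternative fit. Ssbp3 passed the quasi-likelihood test without posterior replicate 1, at a log2 fold change of -0.31 and an adjusted p of 0.00395. That fit called 7119 of the 15349 genes it tested.

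Among linked genes, Cdkn1c, the cell cycle inhibitor that Lhx6 and Lhx8 are known to hold down in palatal mesenchyme, was at 1488 ± 248 CPM in the anterior and 1659 ± 238 CPM in the posterior palate (SD, n = 3 per region). The log2 fold change of 0.16 (95% interval -0.24 to 0.55) did not pass, with an adjusted p of 0.571 by edgeR's quasi-likelihood test. Fgf8, the epithelial signal known to induce Lhx6 and Lhx8 in the early jaw, had at most 2 counts in any library.

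**Figure D3:**
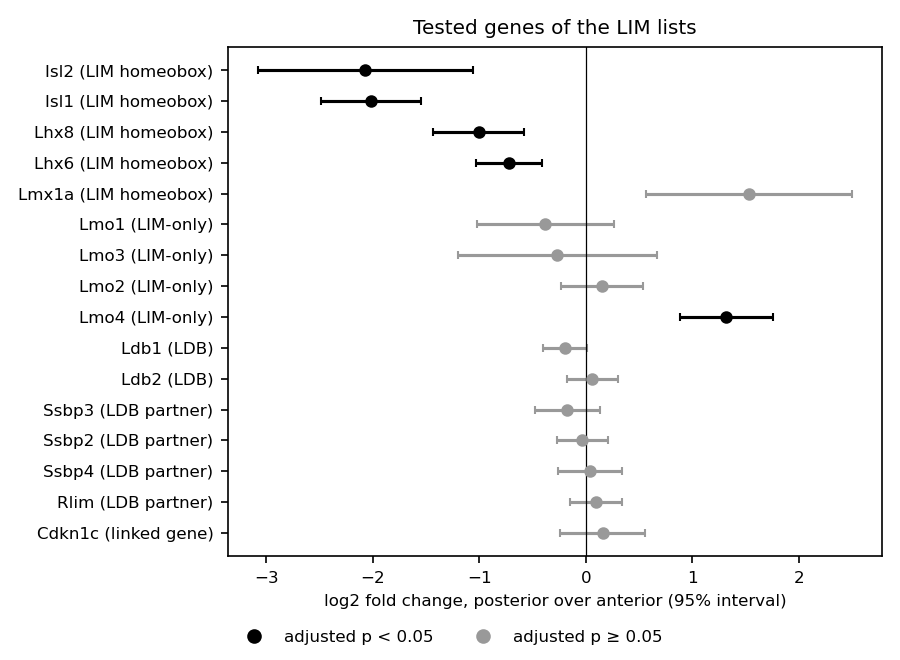
Log2 fold changes, posterior over anterior, of the 16 tested genes of the LIM lists, with 95% intervals from edgeR's quasi-likelihood fit. Black points have an adjusted p below 0.05, which are Isl2, Isl1, Lhx8 and Lhx6 to the left of 0 and Lmo4 to the right, and grey points do not pass.

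The fold changes were next set beside those from other settings. Isl1 and Lmo4 kept their calls in each of the 17 fits, while Lhx6 and Lhx8 kept theirs in 12 of 17 each, with a log2 fold change of -0.83 to -0.63 for Lhx6 and of -1.19 to -0.69 for Lhx8. The number of all genes called also depended on single libraries, being 1169 with all 6, and 522, 498 and 633 without anterior replicates 1, 2 and 3. It was 7119, 500 and 637 without posterior replicates 1, 2 and 3. Posterior replicate 1 differed from posterior replicates 2 and 3 by more than the anterior replicates did from each other, with a chi-square per gene of 52.6 and 67.3 against 3.43 to 6.64.

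**Figure D4:**
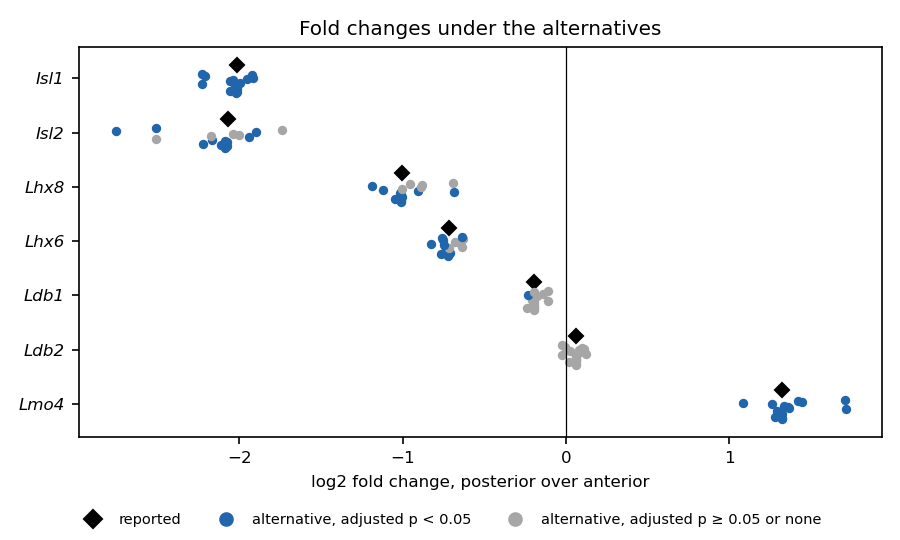
Log2 fold change, posterior over anterior, of the 6 tested members and Isl2 in the reported fit (diamond) and in each alternative fit (points, blue with an adjusted p below 0.05). The points of Isl1 and Lmo4 are all blue, those of Lhx6 and Lhx8 are mixed, and those of Ldb2 lie on both sides of 0.

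The stretch upstream of the start is shown for the 4 members that passed the test, since 3 of them were higher in 1 region and 1 in the other. Each run is 100 bases of GRCm38.p6 from the RefSeq promoter table, on the minus strand of the chromosome and 5′ to 3′ along the gene, ending before the gene's start in both RefSeq and GENCODE M21, whichever is farther upstream. Capitals mark CCAAT and GGGCGG where a script found them.
Lhx8: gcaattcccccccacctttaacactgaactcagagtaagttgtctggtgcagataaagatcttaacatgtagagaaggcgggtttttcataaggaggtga
Lhx6: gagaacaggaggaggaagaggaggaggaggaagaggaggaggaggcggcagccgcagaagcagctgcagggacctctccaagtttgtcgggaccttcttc
Isl1: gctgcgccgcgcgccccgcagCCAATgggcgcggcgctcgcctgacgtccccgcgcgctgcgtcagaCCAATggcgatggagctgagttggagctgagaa
Lmo4: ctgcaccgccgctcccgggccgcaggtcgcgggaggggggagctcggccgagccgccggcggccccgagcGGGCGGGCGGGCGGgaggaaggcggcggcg
The runs lie at chr3:154330660-154330759 for Lhx8, chr2:36105409-36105508 for Lhx6, chr13:116309690-116309789 for Isl1 and chr3:144205256-144205355 for Lmo4. The full 300-base windows of that table are placed by the RefSeq start, which differs from that of M21 by more than 1 base for Lhx8 and Lmo4. The windows of all 4 genes reach into the gene as M21 draws it, that of Lhx8 the farthest. Over these windows the GC content was 47% for Lhx8, 63.3% for Lhx6, 69.0% for Isl1 and 81.3% for Lmo4, against a median of 52.7% over 32851 windows. Lhx8 had 4 CpG sites in its window, Lhx6 16, Isl1 37 and Lmo4 52, against a median of 7. The 3 genes higher in the anterior palate did not share 1 composition. CCAAT, on either strand, occurred 2 times in the window of Isl1, 1 time in that of Lhx6 and in neither Lhx8 nor Lmo4, and in 37.4% of all windows. GGGCGG occurred 4 times in Lmo4 and 1 time in Lhx6 (35.7% of all windows), with overlapping matches counted. TAATTA, the core that many homeodomains bind, and TATAAA were in none of the 8 member windows in the table, and in 5.29% and 13.6% of all windows. The motifs were chosen after the values were seen, and a match is a description of letters only.

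The genes whose profiles over the 6 libraries were most like each member, by root mean square difference of centred log2(CPM + 0.5) values, were named by a set rule. For Lhx6 they were Wdr86 (0.074), Pltp (0.087) and Fzd10 (0.088). For Lhx8 they were Gm26645 (0.072), Pced1b (0.101) and Tgfb1 (0.101). Neither of this pair of LIM genes was among the 3 nearest of the other. For Isl1 they were Aldoc (0.101), Sall4 (0.103) and Pex5l (0.104), and for Lmo4 Ptger1 (0.085), Runx1t1 (0.122) and Barx2 (0.127). Sall4 and Pex5l were at 0.15 to 2.51 CPM and 0.41 to 3.27 CPM, levels at which the added 0.5 shrinks differences. Their log2 fold changes were -2.98 and -2.44, against -2.01 for Isl1. The profiles nearest to Ldb1 were Oxa1l (0.012), Traf7 (0.022) and Stk3 (0.023), and those nearest to Ldb2 were Ipmk (0.022), Cant1 (0.030) and Zfp114 (0.033). The points share libraries, depth and region, and likeness over 6 libraries is given as a description.

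Markers of other cell types were read beside these results. The endothelial list summed to 394 to 411 CPM in the anterior and 344 to 563 CPM in the posterior libraries, with Kdr at an unadjusted p under 0.05 and 0 of 6 genes called, the myeloid list to 66.1 to 76.8 and 58.9 to 65.3 CPM, and the glial list to 18.9 to 22.6 and 15.4 to 21.4 CPM. By edgeR 0 of 4 myeloid and 0 of 4 glial genes were called, and at an unadjusted p under 0.05 there were 2 myeloid genes (Lyz2 and Cd68, with log2 fold changes of -0.49 and -0.55) and 0 glial genes. The osteoblast list summed to 1959 to 3551 and 291 to 1817 CPM, with 0 of 4 called by edgeR and 3 of 4 (Alpl, Runx2 and Sp7) at an unadjusted p under 0.05. The dental mesenchyme list summed to 119, 186 and 453 CPM in anterior replicates 1, 2 and 3 and to 339 to 513 CPM in the posterior libraries, with Barx1 called higher in the posterior palate. Within it, Tfap2b was at 1.97, 15.4 and 117 CPM in anterior replicates 1, 2 and 3 and at 2.40 to 3.61 CPM in the posterior libraries, with an unadjusted p of 0.0168 and an adjusted p of 0.117 by edgeR's quasi-likelihood test. Lhx8 followed the same order of anterior libraries, at 86.4, 103 and 119 CPM, and Lhx6 did not. The palatal mesenchyme list summed to 1432 to 1579 CPM in the anterior and 878 to 1094 CPM in the posterior libraries. Of its 4 markers, Prrx1 was called higher in the anterior palate and Twist1 in the posterior palate, with log2 fold changes of -1.34 and 0.74. Osr2 and Pax9, at log2 fold changes of -0.43 and 0.54, did not pass. The part of these cell types in the levels of Lhx6, Lhx8 and Lmo4 was not tested.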

How the data were processed

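Bulk RNA-seq of 3 anterior and 3 posterior E14.0 palate libraries was analysed. The authors deposited unnormalized counts per gene, 1 file a library, in a layout that STAR writes; per the labels, mm10, HISAT2, StringTie and DESeq2 1.30.1 were used, and the annotation version was not given in the sources used here. The counts of the reverse strand were used, since they were 18.95 to 23.1 times those of the other strand. Gene symbols, positions and exonic lengths came from GENCODE M21 (52073 of 56691 identifiers matched, version numbers ignored).

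The filter kept genes that reached 10 counts in 3 or more libraries, and the test was that of edgeR 4.0.16 under R 4.3.3 (TMM, quasi-likelihood test, region as the only term, Benjamini-Hochberg adjustment over 15673 genes, threshold 0.05). Standard errors were derived from the log2 fold change and the F statistic. Alternatives were DESeq2 1.42.0, limma-voom (limma 3.58.1), other normalizations and filters, unstranded counts, a replicate block, a library-group term, a length correction and leaving out each library. A fit on the 4 libraries with more multimapping was added after the data were seen. The pipeline was tested on simulated data.

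The genes named were the members, the rest of the LIM homeobox and LIM-only families, LDB partners, linked genes, markers, and, for each member whose own mean reached 100 counts in its higher region, the 3 most alike genes among those tested, whatever their level. Members and lists were chosen with earlier results of these data known. Same-numbered replicates did not deviate together (r = -0.059, 0.020 and 0.034), so numbers were not taken to pair samples. Replicates differed by more than sampling noise, and no library was counted as a repeat of another. The result of 1 marker gene is not reported here.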

Additional observations from a re-analysis of the deposited data

How the results depend on the processing

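Of 102 values of the tested members under the alternatives, 88 kept direction and call, 10 lost the call, 1 gained it and 3 turned. For the other LIM genes these were 149, 5, 1 and 9 of 164. The number of genes called was 1978 with DESeq2, 2162 with no low-count filter and 498 to 7119 when 1 library was left out, where members called ranged from 2 to 5. DESeq2 called the same 4 members, and the fit with no low-count filter added Lhx9.

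The values that turned, none of which passed the test in the reported fit, were log2 fold changes of -0.0034 for Ssbp4 with library size only, -0.026 for Ldb2 and 0.078 for Ssbp3 with the library-group term, and -0.073 for Rlim with the length correction. With the 4 libraries with more multimapping, where the lone posterior sample is assumed to vary like the others, they were -0.027 for Ldb2 and 0.077 for Ssbp3. With 1 library left out the range was -0.049 to 0.14 for Ssbp4, -0.52 to 0.24 for Lmo3, -0.089 to 0.035 for Ssbp2 and -0.0082 to 0.11 for Ldb2. The cause was not tested.

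With the replicate number as a block, 829 genes and 3 members (Lhx8, Isl1 and Lmo4) were called. Lhx6 was at -0.71 with an adjusted p of 0.0520 in edgeR's quasi-likelihood test. The samples share only a number. Counts under 20 in every library limit Lhx2, Lhx9 and Lmx1b, and Lmx1a had at most 24.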

Other observations

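Genes that overlap a member or start head-to-head within 1000 bases of it were looked up after the other values were seen, which gave 18 genes, of which 8 were tested. AI606473, a processed transcript on the plus strand at chr3:154330821-154334254 (GRCm38), starts 162 bases from the start of Lhx8 and runs away from it. It was at 107, 128 and 129.5 CPM in the anterior and 51.7, 34.0 and 31.6 CPM in the posterior libraries. The regions did not overlap, and the log2 fold change of AI606473 was -1.64 (SE 0.20) with an adjusted p of 0.00313 by edgeR's quasi-likelihood test, in the same direction as Lhx8. Its difference was not tested against that of Lhx8. Gm43445, annotated within an intron of Lmo4 on the same strand, had 18, 10 and 9 counts in the anterior and 38, 40 and 49 in the posterior libraries. It had a log2 fold change of 1.65 (SE 0.31) and an adjusted p of 0.0195 by edgeR's quasi-likelihood test. The posterior libraries, where it is high, were enough to meet the filter, and the anterior libraries alone were not. Reads from unspliced Lmo4 RNA and from Gm43445 cannot be told apart. Pprc1, which overlaps the start of Ldb1 on the other strand, had a log2 fold change of 0.30 and an adjusted p of 0.165. The other 5 genes tested lie inside Ldb2 on its strand, and none was called by edgeR (1 of 5, Gm43506, had an unadjusted p under 0.05, and it met the filter only through the anterior libraries, where it is high). In CPM, each of the 5 was lower in posterior replicates 2 and 3, the libraries that stand apart, than in the other 4 libraries. Gm42981 had 35, 38 and 30 counts in the anterior and 42, 6 and 6 in the posterior libraries, and Gm3364 had 32, 45 and 36 against 45, 14 and 11.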
